A study of Mus musculus with 88 samples.

Results

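The genes described here are the mouse oogenesins Oog1, Oog2, Oog3 and Oog4 and the oocyte-secreted proteins Oosp1, Oosp2 and Oosp3. They were chosen by name, and each was matched to the feature of the deposited count table that carried its symbol in the study's list of feature names, or otherwise to the feature on the same strand that overlapped its annotated gene best. All 7 genes were found among the 38540 features, 5 by name and 2 by overlap, and all 7 had a mean count above the minimum of 100 per oocyte used below. RNA of individual germinal vesicle (GV) oocytes, which are fully grown oocytes arrested in prophase of the first meiotic division, was sequenced in a protocol that reads the transcriptome and the methylome of the same cell. The oocytes came from C57BL/6Babr females, 42 of them from the young group (12 weeks) and 46 from the old group (44 to 54 weeks, called aged below), and the labels name no allele or treatment for either. The labels do not say which mouse an oocyte came from, so each age group was treated as 1 sample, no test was run between the ages, and SDs describe the spread between oocytes.

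Oocytes were further divided by chromatin configuration, either non-surrounded nucleolus (NSN), the transcriptionally active state of the growing oocyte, or surrounded nucleolus (SN), the condensed and silent state that precedes meiotic maturation. The configuration was the study's own prediction, made from transcripts of the same oocytes and not from their nuclei, and whether the 7 genes entered that prediction is not known here. Differences between SN and NSN oocytes are therefore given as descriptions of predicted classes. The young group held 30 NSN and 12 SN oocytes and the aged group 37 NSN and 8 SN oocytes. The remaining aged oocyte, left out by the study and given no configuration, enters no value below unless named.

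Total counts ran from 1579196 to 8231046 per young oocyte (median 3002989) and from 976456 to 5448310 per aged oocyte (median 2379884). Levels are counts per 1000000 (CPM), and 95% intervals on summed counts cover counting error only, since the reads carry no molecular identifiers. Of a list of 10 oocyte markers, 9 were matched to features, and their summed level was between 9991 and 31858 CPM in every oocyte. The 13 matched granulosa and cumulus cell markers of 16 listed summed to between 29.1 and 156 CPM, with 4 of the 13 at a mean count under 1. Theca and stroma markers (4 of 5 matched, Col1a1 at 0) summed to at most 7.60 CPM and blood and immune markers (4 of 5 matched, both haemoglobin genes at 0) to at most 48.6 CPM. The endothelial list (2 of 3 matched) summed to between 41.02 and 102 CPM, most of it from Pecam1. Of the 9 oocyte markers, 8 were higher in SN oocytes of both ages and Mos was lower, and their sum had medians of 23480 CPM in young NSN, 27254 in young SN, 22360 in aged NSN and 30116 in aged SN oocytes. Their part in the differences between SN and NSN oocytes below was not tested.

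Oogenesins belong to the PRAME-like family, proteins built of leucine-rich repeats that have multiplied into large clusters in the mouse genome, and Oog1 was identified as a transcript of oocytes and early embryos. The oocyte-secreted proteins are small proteins with a signal peptide, related to the placental protein PLAC1 and to a domain of the zona pellucida proteins, and their genes lie side by side. Transcripts of both families are made while the oocyte grows and are held as maternal stores after transcription stops.

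In GRCm38, the feature of Oog1 lay at chr12:87602688-87610278 on the plus strand. Those of the other oogenesins lay on chromosome 4, Oog2 at chr4:144183291-144199594 on the plus strand, Oog3 at chr4:144155823-144162862 on the minus strand and Oog4 at chr4:143437164-143450519 on the minus strand. The features of the oocyte-secreted proteins were neighbours on chromosome 19, Oosp2 at chr19:11643156-11660865 and Oosp1 at chr19:11667460-11691636 on the minus strand and Oosp3 at chr19:11696839-11711874 on the plus strand. The study's list gave Oosp2 and Oosp3 under their older symbols Plac1l and Gm97. No member's feature overlapped any other feature on either strand. The feature of Oog2 was the loosest match, 16304 bases long against a shorter annotated gene within it, so its counts may include reads from outside Oog2.

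Reads of the oogenesins can be shared with near-identical copies. The coding sequences of the 4 oogenesins were 75.1% to 81.4% identical to each other after alignment with gaps, and those of the 3 oocyte-secreted proteins 65.1% to 65.8%. Reads were 100 bases long, and 91.7% of the 100-base windows of the Oog1 transcript also occurred in transcripts of other genes, all of them in that of its copy Gm2042. For Oog2 the share was 22.4%, with Gm13084 the main partner, and for Oog3 it was 10.8%, with Gm4350. No 100-base window of Oog4, Oosp1, Oosp2 or Oosp3 occurred in the transcript of another gene. Since primary alignments were counted, the level of Oog1 in particular depends on how reads were divided between copies, and it is uncertain for that reason.

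The 250 bases upstream of the RefSeq transcript start (GRCm38.p6) are shown for 6 of the members, because the oogenesins share this sequence while their transcripts differed in direction between SN and NSN oocytes. Each is printed 5′ to 3′ on the strand of the gene and ends at the base before the start. Capitals mark CANNTG, the E-box bound by basic helix-loop-helix factors such as the oocyte factor FIGLA, and TAATTG on either strand, an element bound by the oocyte homeobox factor NOBOX. The windows are Oog1 at chr12:87602415-87602664 (plus), Oog2 at chr4:144190467-144190716 (plus), Oog3 at chr4:144162652-144162901 (minus), Oog4 at chr4:143450325-143450574 (minus), Oosp1 at chr19:11691052-11691301 (minus) and Oosp2 at chr19:11660560-11660809 (minus).
Oog1: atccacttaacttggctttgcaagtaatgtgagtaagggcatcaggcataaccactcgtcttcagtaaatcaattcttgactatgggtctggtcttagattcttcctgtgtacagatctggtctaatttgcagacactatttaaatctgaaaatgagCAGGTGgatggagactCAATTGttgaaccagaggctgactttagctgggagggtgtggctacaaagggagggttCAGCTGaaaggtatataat
Oog2: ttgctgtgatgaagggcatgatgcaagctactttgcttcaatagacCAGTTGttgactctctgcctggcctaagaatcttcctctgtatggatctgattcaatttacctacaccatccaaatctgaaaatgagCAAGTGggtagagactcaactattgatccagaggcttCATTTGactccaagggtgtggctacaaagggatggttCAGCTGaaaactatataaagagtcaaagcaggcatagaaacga
Oog3: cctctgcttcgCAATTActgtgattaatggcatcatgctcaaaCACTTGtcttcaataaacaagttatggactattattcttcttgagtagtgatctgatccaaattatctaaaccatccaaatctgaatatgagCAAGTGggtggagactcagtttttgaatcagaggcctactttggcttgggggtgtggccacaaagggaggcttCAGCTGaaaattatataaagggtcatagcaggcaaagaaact
Oog4: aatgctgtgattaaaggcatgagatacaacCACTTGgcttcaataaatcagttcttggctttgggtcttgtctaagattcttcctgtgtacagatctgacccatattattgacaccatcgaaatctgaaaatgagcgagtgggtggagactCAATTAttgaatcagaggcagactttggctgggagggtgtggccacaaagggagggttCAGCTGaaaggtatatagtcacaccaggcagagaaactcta
Oosp1: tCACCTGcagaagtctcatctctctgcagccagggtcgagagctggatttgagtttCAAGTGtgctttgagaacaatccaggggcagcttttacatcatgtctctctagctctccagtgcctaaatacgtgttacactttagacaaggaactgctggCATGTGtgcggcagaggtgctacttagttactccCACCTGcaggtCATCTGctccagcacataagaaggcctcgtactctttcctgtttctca
Oosp2: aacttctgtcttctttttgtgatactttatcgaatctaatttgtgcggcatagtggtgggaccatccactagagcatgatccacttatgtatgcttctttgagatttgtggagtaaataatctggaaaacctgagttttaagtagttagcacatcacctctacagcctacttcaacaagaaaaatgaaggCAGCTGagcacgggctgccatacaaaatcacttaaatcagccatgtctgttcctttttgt

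The upstream windows of the oogenesins aligned with each other over 221 to 242 bases at 77.4% to 85.1% identity, the highest between Oog1 and Oog4. Between Oosp1 and Oosp2 the best local alignment covered only 15 bases. All 4 oogenesins held the 11 bases TTCAGCTGAAA, beginning 43 to 45 bases before the start in Oog2, Oog3 and Oog4 and 21 bases before it in Oog1. In all, 14 of 32851 promoter windows held them, among them Gm2042, Pramel23, Pramel26 and Pramel32. The others named were Gm13403, Gm32920, Gm34439, Kcnj13 and Lcn15. CAGCTG, the E-box within that run, was present in 13.001% of all windows, and it also lay in the window of Oosp2. CANNTG of any kind was present in all 6 windows and in 66.2% of all promoter windows. TAATTG was present upstream of Oog3 and Oog4 and in 7.17% of all promoter windows, and may overlap CANNTG where the letters allow. CAGCTG and the 11 bases were singled out after the windows had been compared. These are matches of letters and were not tested as binding sites.

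Per kilobase of annotated exon, the scale on which genes can be compared, Oosp1 was at the top in both ages, at 1548 ± 269 CPM per kb (SD, n = 42) in young oocytes and 1662 ± 499 (SD, n = 45) in aged oocytes. Oosp3 followed at 1252 ± 317 and 1429.5 ± 554 CPM per kb, Oosp2 at 883 ± 179 and 1008 ± 265, and Oog3 at 831 ± 127 and 908 ± 177. Oog4 stood at 456 ± 82.2 and 452 ± 159 CPM per kb, Oog2 at 157 ± 21.9 and 169.8 ± 29.8, and Oog1 at 50.9 ± 9.28 and 57.0 ± 12.9. Both ages gave the same order. Oosp1 did not differ from Oosp3, nor Oosp2 from Oog3, by more than the larger of their SDs over oocytes in either age, and in aged oocytes Oosp3 and Oosp2 did not either. Oog3, Oog4, Oog2 and Oog1 each differed from the next by more than that SD. Together the 7 transcripts made up 0.612% of counts per young oocyte and 0.658% per aged oocyte, taken as means.

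**Figure D1:**
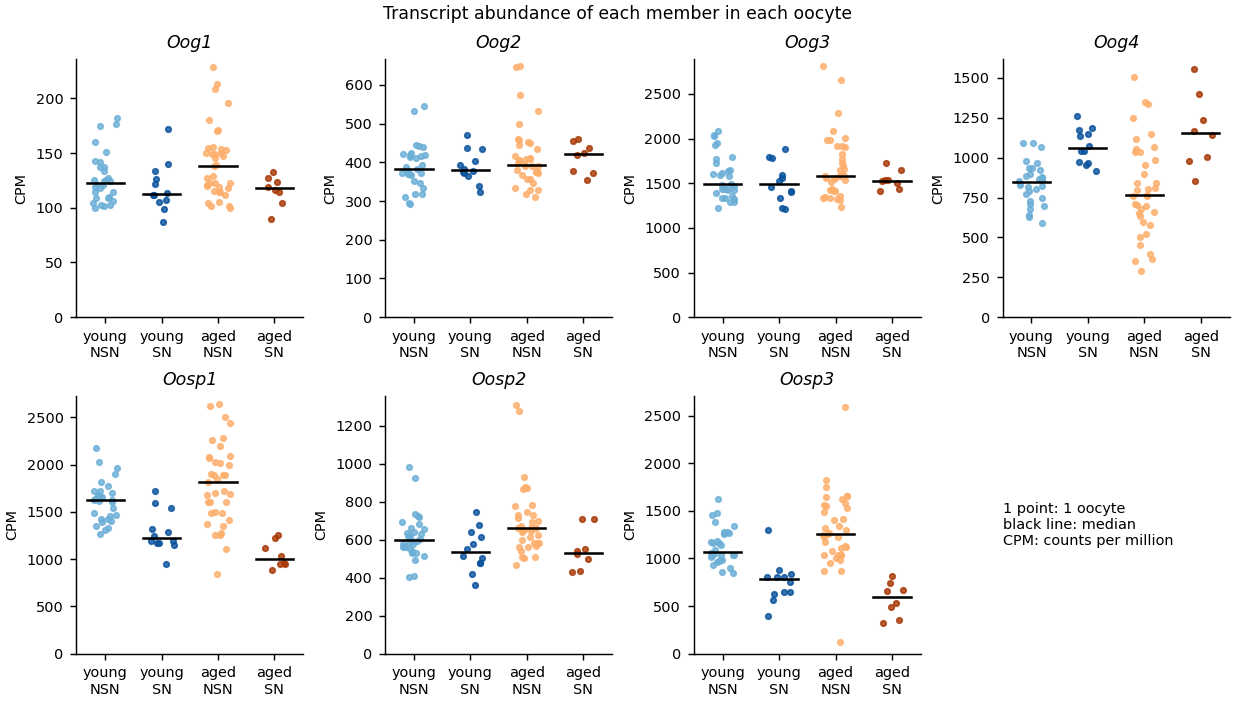
Transcript abundance of the 7 genes in each of 87 oocytes, in CPM on the vertical axis, by age and predicted chromatin configuration; each point is 1 oocyte and each black line a median. Oog4 points are higher in SN than in most NSN oocytes of both ages, Oosp1 and Oosp3 points are lower, and a single aged NSN oocyte sits at 125 CPM for Oosp3.

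Among the oogenesins, Oog4 differed most between configurations over all oocytes of each age. In young oocytes it ranged from 588 to 1095 CPM in NSN (median 847) and from 915 to 1262 CPM in SN (median 1058). In aged oocytes it ranged from 288 to 1505 CPM in NSN (median 765) and from 857 to 1555 CPM in SN (median 1156). All 12 young SN and all 8 aged SN oocytes lay above the median of NSN oocytes of their age, but only 5 of 12 and 1 of 8 lay above every one of them, so the classes overlapped. The log2 ratio of summed counts, SN over NSN, was 0.32 in young oocytes (95% counting interval 0.30 to 0.33), just inside the limit used here to call a difference, which is a level 25% above the other (0.32 before rounding on the log2 scale, called the 25% limit). Under other scalings and subsets it lay between 0.30 and 0.36. In aged oocytes it was 0.53 (0.51 to 0.55), past that limit.

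The other oogenesins did not share this pattern. Oog1 had medians of 123 CPM in young NSN, 113 in young SN, 138 in aged NSN and 118 in aged SN oocytes. Its log2 ratios, SN over NSN, were -0.16 in the young group and -0.32 in the aged group, the latter just inside the 25% limit, and all 8 aged SN oocytes lay below the aged NSN median. Oog2 had medians of 382, 379, 393 and 422 CPM in the same order, and its log2 ratios were -0.031 and -0.037. Oog3, the most abundant oogenesin, had medians of 1486, 1497, 1578 and 1528 CPM, and its log2 ratios were -0.093 and -0.14. For Oog2 and Oog3 both ratios were small beside the spread between oocytes, and 6 of 12 young SN oocytes lay above and 6 below the young NSN median for each of them.

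All 3 oocyte-secreted proteins were lower in SN oocytes of both ages, Oosp3 by the most. Oosp3 ranged from 851 to 1625 CPM in young NSN oocytes (median 1073) and from 393 to 1297 CPM in young SN oocytes (median 781). In aged oocytes it ranged from 125 to 2585 CPM in NSN (median 1254) and from 321 to 817 CPM in SN (median 595). In young oocytes 11 of 12 SN oocytes lay below the NSN median and 10 of 12 below every NSN oocyte. In aged oocytes 8 of 8 lay below the NSN median and none below every NSN oocyte, because aged NSN oocyte 27 had the lowest level of all 87 oocytes, at 125 CPM. The log2 ratio, SN over NSN, was -0.64 in young (-0.66 to -0.62) and -1.19 in aged oocytes (-1.22 to -1.16), and without oocyte 27, left out after its value was seen, the latter was -1.24.

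Oosp1 ranged from 1270 to 2173 CPM in young NSN (median 1629) and from 951 to 1719 CPM in young SN oocytes (median 1222). In aged oocytes it ranged from 848 to 2641 CPM in NSN (median 1817.5) and from 891 to 1259 CPM in SN (median 999.5). Lower levels were seen in SN oocytes in 11 of 12 young and 8 of 8 aged cases, counted against the NSN median of the same age, with overlap of the ranges in both. The log2 ratio was -0.38 (-0.39 to -0.36) in young and -0.76 (-0.78 to -0.74) in aged oocytes. Oosp2 had medians of 599 CPM in young NSN, 534 in young SN, 661 in aged NSN and 531 in aged SN oocytes, and log2 ratios of -0.27 in young and -0.39 in aged oocytes. Its difference was the weakest of the 3, with 8 of 12 young and 6 of 8 aged SN oocytes below the NSN median.

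Counted over the 7 genes, 2 were past the 25% limit between SN and NSN in young oocytes, Oosp1 and Oosp3, both lower in SN. The call of Oosp1 was lost after thinning to equal depth (-0.32), with the mean CPM over oocytes (-0.32) and without oocytes 17 to 24 (-0.27), and under the first and second of these Oog4 was past the limit instead (0.35 in each). Of 12408 features with a mean count of at least 10, 15.3% were past that limit in either direction and 4.38% in the lower direction. Of those with a mean count of at least 100, as all 7 genes had, 6.43% were past it in either direction. In aged oocytes 4 of 7 were past it, Oog4 higher and Oosp1, Oosp2 and Oosp3 lower. Beside them were 34.7% of features in either direction, 20% higher and 14.7% lower, and 24.6% of those with a mean count of at least 100. Oog1 was also past the limit, as lower, with TMM factors (-0.36) and median of ratios factors (-0.34). Oosp2 lost its call with the median CPM over oocytes (-0.31), among oocytes without a name suffix A (-0.30) and without oocytes 41 to 48 (-0.10). At a limit of 50% (0.58 on the log2 scale), Oosp3 alone remained past it in young oocytes and Oosp1 and Oosp3 in aged oocytes, beside 3.63% and 12.4% of features. The middle log2 ratio of the 7 genes was -0.16 for young oocytes, against 0.0069 for all features, and -0.32 for aged oocytes, against -0.0049. Over all oocytes the ratios of all 7 genes were larger in size in the aged group. The excess was largest for Oog4, Oosp1 and Oosp3, by 0.22, 0.38 and 0.55 on the log2 scale in that order. The share of all features past the 25% limit was also larger in the aged group, at 34.7% against 15.3%. For Oog4 the excess was smaller without aged oocytes 25 to 31, when its aged ratio was 0.39 against 0.32 in young oocytes. Among oocytes whose name carries a suffix A its ratio was smaller in the aged group, at 0.20 against 0.36. The aged SN oocytes among them were 26A, 27A and 28A only. For Oosp3 the ratios of names without that suffix were -0.91 for aged and -0.89 for young oocytes. The difference between the ages was not tested, since the mice are not named.

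**Figure D2:**
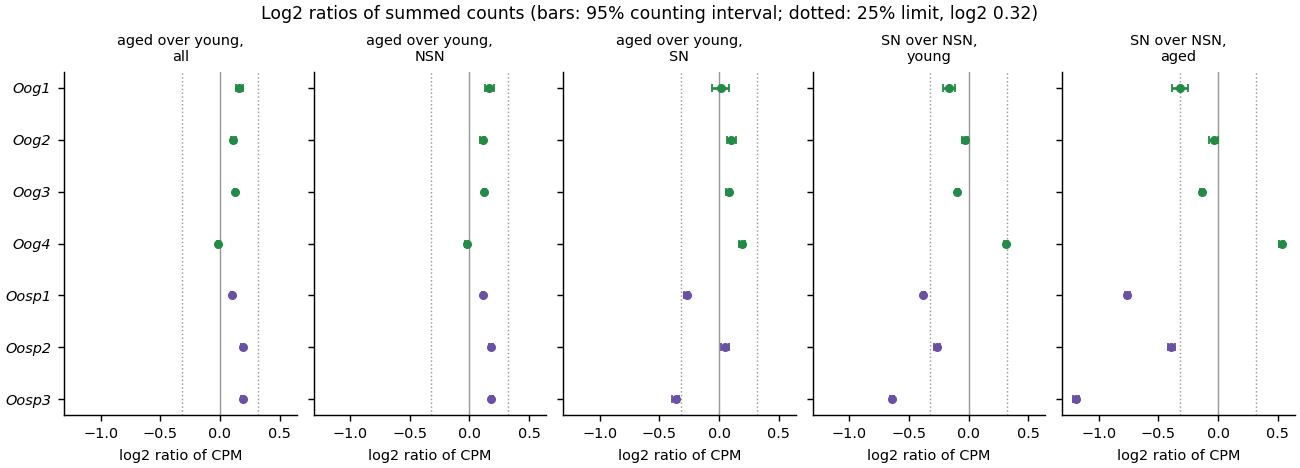
Log2 ratios of CPM from summed counts for each of the 7 genes (rows) in 5 comparisons (panels); bars are 95% counting intervals, dotted lines mark the 25% limit, green points are oogenesins and purple points oocyte-secreted proteins. All 7 points lie inside the 25% limit between the ages over all oocytes, whereas between SN and NSN oocytes in the aged group Oog4 is at 0.53 and Oosp3 at -1.19.

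Young and aged oocytes were numbered in alternating blocks, here called runs: 1 to 7, 17 to 24 and 33 to 39 for young and 9 to 16, 25 to 31 and 41 to 48 for aged oocytes. A number may stand alone or carry a suffix A. The labels do not say what the runs or the suffix stand for. Each run held both NSN and SN oocytes, 1 to 6 SN oocytes a run, so the comparison of configurations could be made within runs. In each aged run, though, the SN oocytes all carried the suffix or all lacked it, while the NSN oocytes were mixed. Configuration and suffix were therefore not separated within the aged runs. Oog4 was higher in SN oocytes in 6 of 6 runs, with log2 ratios from 0.28 to 0.97. Oosp3 was lower in 6 of 6 runs, from -1.50 to -0.31. Oosp1 was lower in 5 of 6 runs (-0.81 to 0.034), and Oosp2 in 5 of 6 (-0.74 to 0.15). Oog1 was lower in 5 of 6 runs (-0.50 to 0.074). Oog2 was higher in 4 of 6 runs (-0.24 to 0.18) and Oog3 lower in 4 of 6 (-0.25 to 0.089). The run of 1 to 7 held only 1 SN oocyte. In the run of 41 to 48, Oosp2 stood at 487 CPM in the SN oocytes, which lacked the suffix. It stood at 813 CPM in all NSN oocytes of that run and at 586 CPM in those without the suffix. In the run of 25 to 31, Oog4 stood at 1120 CPM in the SN oocytes, which carried the suffix. It stood at 570 CPM in all NSN oocytes of that run and at 747 CPM in those with the suffix. By suffix, the difference for Oog4 in aged oocytes was 0.20 with the suffix, inside the 25% limit, and 0.89 without it. For Oosp3 it was -1.82 and -0.91. The aged SN oocytes with the suffix were only 26A, 27A and 28A, all of the run of 25 to 31. Among aged oocytes with the suffix, Oog1 (-0.45) and Oog3 (-0.36) differed more than Oog4.

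Oog4 and Oosp1 were also set against each other within each oocyte, a ratio chosen after their values were seen. The log2 ratio of Oog4 to Oosp1 CPM ranged from -1.55 to -0.47 in young NSN oocytes (median -0.97) and from -0.76 to 0.26 in young SN oocytes (median -0.23). In aged NSN oocytes it ranged from -2.91 to 0.092 (median -1.07) and in aged SN oocytes from -0.51 to 0.71 (median 0.16). In CPM, Oog4 exceeded Oosp1 in 0 of 30 young NSN, 2 of 12 young SN, 1 of 37 aged NSN and 6 of 8 aged SN oocytes. These counts do not rank the genes, since their exons are 1981 (Oog4) and 972 (Oosp1) bases long. Per kilobase of exon, Oog4 stood below Oosp1 in each class, at 606 against 1056 CPM per kb in aged SN oocytes. The classes still overlapped, with 9 of 30 young and 9 of 37 aged NSN oocytes above the lowest SN oocyte of their age.

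**Figure D3:**
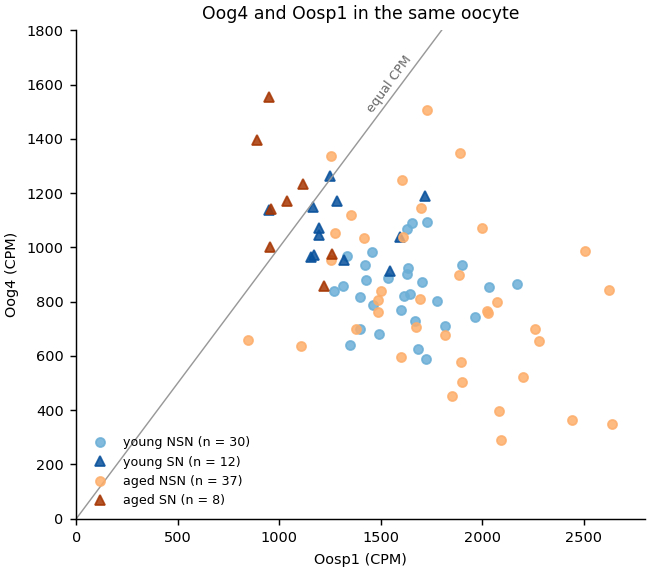
Oog4 against Oosp1 in the same oocyte, both in CPM, for 87 oocytes; circles are NSN and triangles SN oocytes, and the grey line marks equal CPM. Aged NSN oocytes stretch from 288 to 1505 CPM of Oog4, and 6 of the 8 aged SN oocytes lie above the line.

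Between the ages, differences in level were small. Over all oocytes the log2 ratio, aged over young, was 0.16 for Oog1, 0.11 for Oog2, 0.13 for Oog3 and -0.013 for Oog4, and 0.10 for Oosp1, 0.19 for Oosp2 and 0.19 for Oosp3. No member was past the 25% limit, beside 4.51% of features and 0.99% of those with a mean count of at least 100. In NSN oocytes alone the 7 ratios ran from -0.024 to 0.18, again with none past it. The share of features was 5.89%, and 1.34% of those with a mean count of at least 100. Of the 7 ratios, 6 were above 0 in both, and the median over the 7 genes was 0.13 over all oocytes and 0.12 in NSN oocytes, against -0.0072 and -0.0090 over all features. For every member the difference between the ages was smaller than the SD over oocytes in either age, so young and aged oocytes overlapped broadly.

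In SN oocytes alone, 1 member was past the 25% limit, Oosp3 with a log2 ratio, aged over young, of -0.36. Beside it were 16% of features in either direction and 7.61% in the lower direction. Of features with a mean count of at least 100, 4.81% were past it in either direction. No member was past 50%, beside 3.57% of features. For Oosp3 the 8 aged SN oocytes ranged from 321 to 817 CPM and the 12 young SN oocytes from 393 to 1297 CPM. Of the 8, 7 lay below the young SN median. Oosp1 was at -0.27, with 7 of 8 aged SN oocytes below the young SN median, and Oog4 at 0.19, with 2 of 8 above every young SN oocyte. Under alternatives Oosp1 lay between -0.39 (without oocytes 17 to 24), past the 25% limit, and -0.14 (without the suffix A). Oog4 lay between 0.014 (without oocytes 41 to 48) and 0.25 (without oocytes 9 to 16). With the suffix A the ratio of Oosp3 was -1.04, without it 0.036, and -0.15 when oocytes 25 to 31 were left out. The 3 aged SN oocytes with the suffix, 26A, 27A and 28A, were also the only SN oocytes of that run. Suffix and run were therefore not separate among the aged SN oocytes here. These comparisons share their oocytes with the comparisons of SN and NSN oocytes above.

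The small differences between the ages moved with the suffix and with 1 set of oocytes. Among oocytes with the suffix A all 7 members were higher in aged oocytes, with a median log2 ratio of 0.30, and among those without it 2 of 7 were higher, with a median of -0.056. With the suffix 3 members were past the 25% limit, Oog1 (0.40), Oosp2 (0.41) and Oosp3 (0.34). In NSN oocytes with the suffix 4 were past it, Oog1 (0.45), Oog2 (0.34), Oog3 (0.37) and Oosp2 (0.43). In NSN oocytes without the suffix Oog4 was, in the lower direction (-0.39). The share of all features past the limit was not taken in these subsets, so these counts have no background. By run and suffix the NSN oocytes form 12 sets of 3 to 8 oocytes. Aged oocytes 41A to 47A, 7 NSN oocytes, were the highest of the 12 sets for 6 of 7 members, all but Oosp1. Of 5366 features with a mean count of at least 100, 13.7% were highest in that set and 22.1% were lowest in it. Oosp2 stood at 957 CPM in these 7 oocytes and at 636 CPM in the other 30 aged NSN oocytes, Oog1 at 184 and 132 CPM, and Oog3 at 2160.4 and 1582 CPM. Oocytes 41A and 42A held the highest and second highest levels of all 87 oocytes for Oog1, Oog2, Oog3 and Oosp2.

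Without those 7 oocytes, the median log2 ratio between the ages was 0.041 over all oocytes and 0.017 in NSN oocytes. The ratio in NSN oocytes was then 0.037 for Oog1, -0.014 for Oog2, 0.0037 for Oog3, -0.22 for Oog4, 0.15 for Oosp1, 0.017 for Oosp2 and 0.086 for Oosp3. The same oocytes enter the comparison of SN and NSN in the aged group, where without them Oog4 was at 0.73, Oosp1 at -0.80 and Oosp3 at -1.09, and Oosp2, at -0.23, was no longer past the 25% limit. The set was singled out after its values were seen, and age and whatever the runs stand for cannot be told apart, since no run holds both ages.

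**Figure D4:**
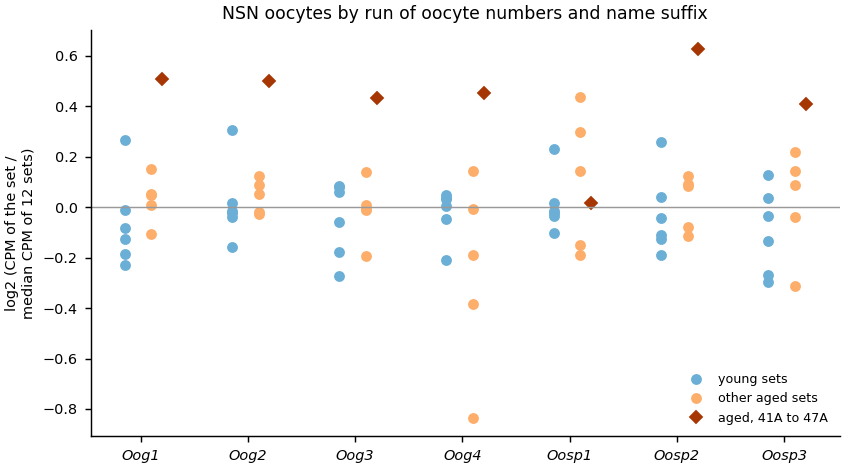
NSN oocytes in 12 sets by run of oocyte numbers and name suffix; each point is the CPM of 1 set, as log2 of its ratio to the median of the 12 sets, and the diamonds are aged oocytes 41A to 47A. The diamonds are the highest points for 6 of 7 genes, and the lowest Oog4 point is an aged set at 479 CPM.

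Spread between oocytes differed between the ages more than level did. By the paper's account, a greater number of females supplied the aged group. Their ages also ran from 44 to 54 weeks, whereas all young females were 12 weeks old. Differences between females could not be separated from differences between oocytes of 1 female, and their part in the spread was not tested. Dispersion, the squared coefficient of variation less counting noise, was larger in aged oocytes for all 7 members, beside 73.8% of features. The log2 ratio of dispersion, aged over young, was 2.13 for Oog4, 1.48 for Oosp1, 1.28 for Oosp3, 1.02 for Oosp2, 0.93 for Oog2, 0.90 for Oog3 and 0.78 for Oog1, against a median of 0.46 over all features. As a coefficient of variation, Oog4 went from 17.8% in young to 37.3% in aged oocytes and Oosp1 from 17.5% to 29.2%. The ratio for Oog4 exceeded that of 98.1% of features, and it was 2.59 in NSN oocytes alone.

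The 7 members divided when oocytes 41A to 47A were left out. Oog4 stayed at 2.02, Oosp1 at 1.64 and Oosp3 at 1.06, whereas Oog1 went to -0.22, Oog2 to -0.87, Oog3 to -0.49 and Oosp2 to -0.62, beside a median of 0.35 over all features. Leaving out each of the 6 runs in turn, the ratio of Oog4 lay between 1.66, without 25 to 31, and 2.38, that of Oosp1 between 1.22 and 1.79 and that of Oosp3 between 0.86 and 1.78. Oog4 in aged NSN oocytes varied between sets, from 479 CPM in the 7 oocytes of 25 to 31 without a suffix to 1168 CPM in 41A to 47A, while the 6 young sets lay between 738 and 883 CPM. It also varied within sets, from 288 to 1248 CPM among 6 aged NSN oocytes of 9 to 16 without a suffix.

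**Figure D5:**
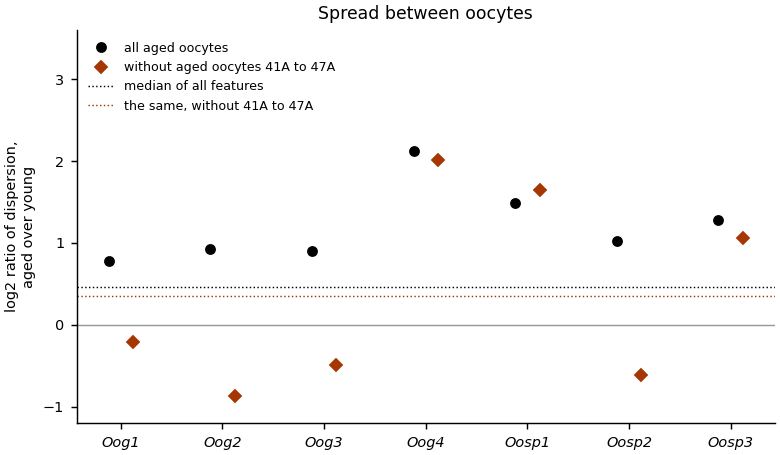
Log2 ratio of dispersion, aged over young, for each gene, over all aged oocytes (black circles) and without aged oocytes 41A to 47A (diamonds), with dotted lines at the medians of all features. Oog4, Oosp1 and Oosp3 stay above 1 in both, and Oog1, Oog2, Oog3 and Oosp2 drop below 0 in the second.

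Across the 87 oocytes, levels of the members were compared by rank. These correlations are descriptions over oocytes that share libraries, depth, age and configuration. Spearman's coefficient was 0.78 between Oosp1 and Oosp3, 0.58 between Oosp2 and Oosp3 and 0.50 between Oosp1 and Oosp2. It was 0.59 between Oog1 and Oog3, 0.40 between Oog1 and Oog2 and 0.49 between Oog2 and Oog3. Between these 3 oogenesins and the oocyte-secreted proteins it ran from -0.13 (Oog2 and Oosp1) to 0.54 (Oog1 and Oosp3). It was 0.45 between Oog3 and Oosp3 and 0.42 between Oog2 and Oosp2. Oog4 had 0.43 against Oog2, 0.26 against Oog3, -0.031 against Oog1, -0.47 against Oosp1 and -0.35 against Oosp3. Against Oog2 and Oog3 it had 0.50 and 0.52 within the 30 young NSN oocytes and 0.48 and 0.43 within the 37 aged NSN oocytes. Within the 37 aged NSN oocytes Oog4 and Oosp1 had -0.38, and within the 30 young NSN oocytes -0.04. Oog4 and Oosp3 had -0.0052 and -0.12 in the same order. With the total count, the members had coefficients from -0.21 (Oosp1) to 0.066 (Oog4) over all 87 oocytes. Within classes these were larger, at 0.35 for Oosp3 in young NSN, -0.32 for Oosp1 in aged NSN, -0.68 for Oosp2 in the 12 young SN and -0.69 for Oosp1 in the 8 aged SN oocytes.

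For each member the 3 features whose CPM followed it most closely over the 87 oocytes, among 5366 with a mean count of at least 100 and without the members themselves, are named by Spearman's coefficient. Oog1 was nearest to Gm2042 (0.78), the copy with which it shares most of its sequence, then CT954323.1 (0.71) and Gm4767 (0.69). Oog2 was nearest to Gm13084 (0.63), with which it also shares sequence, then Gm13103 (0.60) and the F-box gene Fbxw15 (0.54). Oog3 was nearest to Gm2042 (0.77), Gm4767 (0.70) and Dnaja1 (0.68), a heat shock protein 40 co-chaperone. The names Gm4767 and Ovch2 come from the study's list and overlapped the annotated genes poorly.

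Oog4 was nearest to Ovch2 (0.86), Enpp5 (0.84) and Catsper2 (0.82), a subunit of the sperm calcium channel. All 3 were higher in SN oocytes, by log2 ratios of 0.92, 0.62 and 0.74 in aged oocytes. Oosp1 was nearest to Orc6 (0.83), a subunit of the origin recognition complex, Btf3 (0.82) and the ubiquitin-conjugating enzyme Ube2t (0.82). Oosp2 was nearest to the kinetochore gene Cenph (0.84), Tomm20l (0.81) and Tceb1 (0.81), which encodes elongin C. Oosp3 was nearest to the spindle checkpoint gene Mad2l1 (0.80), Orc6 (0.80) and Rhoq (0.79). Each of the features nearest to the 3 oocyte-secreted proteins was lower in SN oocytes of both ages, as those 3 were. These features and those nearest to Oog4 were picked by correlation over NSN and SN oocytes together. A direction shared with the member was therefore favoured by that choice.

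Of 13 listed features of other PRAME-like genes, 4 had a mean count under 1 and 8 a mean count of at least 100. The remaining feature, BC061212, named here after its values were seen, had a mean count of 15.8 and overlapped its annotated gene poorly. Its log2 ratio, SN over NSN, was 0.51 for young and 1.41 for aged oocytes. None of these 8 was past the 25% limit between the ages, nor between SN and NSN in young oocytes, and in aged oocytes 1 was lower in SN, C87499 with a log2 ratio of -0.41. The 3 with the largest difference between the ages were AA792892 at 0.21, E330014E10Rik at 0.18 and C87499 at 0.17. C87414 and C87977 had levels near those of Oog4, at 971 and 959 CPM in young NSN oocytes, and their log2 ratios between the ages were 0.037 and 0.061. Pramef12, near the oogenesins on chromosome 4, stood at 852 CPM in young NSN and 893 CPM in aged NSN oocytes. The median over the 8 was 0.063 between the ages and 0.0096 between SN and NSN in young oocytes. No relative of the oocyte-secreted proteins was matched to a feature.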

How the data were processed

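Single GV oocyte libraries were made with Smart-seq2 and read from 1 end. After trimming and alignment to GRCm38, the authors counted primary alignments on the features of an assembled oocyte transcriptome, and raw counts of 88 oocytes were deposited. The counting program and its strand setting are not given in the sources used here. Age came from the labels and configuration from the study's supplementary list. Features were named from the 1998 names at hand in that list, or else by overlap with same-strand genes of GENCODE M21 (Jaccard index of at least 0.3). The genes and lists were chosen with earlier results of these data known. For each group the summed counts of a feature were divided by the summed totals. Intervals are exact Poisson or binomial, and no gene was tested. Dispersion used median of ratios size factors. Python 3.11.15, numpy 2.4.6, scipy 1.17.1 and edgeR 4.0.16 (TMM factors only) were used, and ratios and dispersions were tested on simulated data. Named genes are the members, the 3 features nearest to each, and listed relatives with a mean count of at least 100. Alternatives were other scalings, thinning, other summaries and subsets of oocytes. The total of 1 aged SN oocyte differed from that in the study's list.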

Additional observations from a re-analysis of the deposited data

Results flagged for a closer look

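The aged oocyte that the study left out, 48A, was outside the comparisons above and had 3588332 counts. Oog4 stood at 2161 CPM in it, above every young oocyte and above all 87 oocytes used, whose highest was 1555 CPM. Oog3 stood at 2088 CPM, also above every young oocyte, with 84 of the 87 oocytes below it. Oosp1 stood at 595 CPM, below all 87 oocytes, and Oosp3 at 547 CPM, with 6 of 87 below it. Oog1, Oog2 and Oosp2 lay within the range of the other oocytes, at 124, 387 and 548 CPM. Among the 8 aged SN oocytes, none was set apart from the others for any of the 7 genes by a gap test at the 95% level. Larger groups were not tested in that way.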

How the results depend on the processing

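No paired analysis was possible because the young and aged oocytes share no numbers and the labels name no mouse. The labels' lack of mice is a limit throughout, and age cannot be told apart from the runs. Of 483 ratios of single members under alternatives, 42 changed sign. Of 86 for members past the 25% limit, 75 were still past it in the same direction. The median over the members, aged over young, was 0.30 with the suffix A and -0.056 without it, and in NSN oocytes 0.34 and -0.10, and 0.017 there without oocytes 41A to 47A. In SN oocytes it lay between -0.062 and 0.080 when 1 run was left out. SN over NSN in young oocytes, it was -0.051 after thinning to 900000 counts, -0.00038 with the suffix and -0.31 without it, and between -0.27, without 33 to 39, and -0.035, without 1 to 7, when 1 run was left out. In aged oocytes it was -0.15 without the suffix, -0.19 without oocytes 41A to 47A, and between -0.42 and -0.10, without 41 to 48, when 1 run was left out. At a limit of 50%, 0 members were past the limit between the ages in SN oocytes, 1 between SN and NSN in young and 2 in aged oocytes. Oosp3 between the ages in SN oocytes turned to 0.036 without the suffix. The median log2 ratio of dispersion was -0.22 without oocytes 41A to 47A, chosen after seeing the data, where Oog1 turned to -0.22, Oog2 to -0.87, Oog3 to -0.49 and Oosp2 to -0.62, and it lay between -0.17 and 1.57 when 1 run was left out, also chosen after seeing the data. Without oocytes 41 to 48, Oog1 turned to -0.17, Oog2 to -0.80, Oog3 to -0.42 and Oosp2 to -0.87, while their highest values with 1 run left out were 1.26, 1.57, 1.38 and 1.90. The cause was not tested.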
